A study of Mus musculus with 6 samples.

Results

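Epithelial-mesenchymal transition is the change by which cells joined in a sheet loosen their junctions and take on the form and movement of mesenchymal cells. The genes examined here are its best known transcription factors (Snai1, Snai2, Zeb1, Zeb2, Twist1 and Twist2), 3 cadherins (Cdh1, Cdh2 and Cdh11) and the filament gene Vim. They were chosen by name: every probe listed on the array under SNAI1, SNAI2, TWIST1, TWIST2, ZEB1, ZEB2, CDH1, CDH2, CDH11 or VIM was taken. That gave 10 of 30854 names and 18 of 45281 probes. Several of these probes gave no signal above background, so each probe is described on its own.

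The samples are 2 mouse colorectal cancer cell lines in culture. MC38 cells are sensitive to EPA, the fish-oil fatty acid eicosapentaenoic acid, and MC38r cells are a resistant line whose IC50 was 6-fold higher after continuous exposure to EPA. Per the labels, both lines were harvested at 70% confluence from serum-containing RPMI medium, and no acute treatment is named. Total RNA of each line was hybridised to 3 bead arrays of the MouseWG-6 v2.0 type from Illumina. Since each kind of cell is 1 line, and the labels do not say whether the numbered replicates were separate cultures, p-values measure the spread between arrays, which may be technical. The 3 MC38 arrays lay before the 3 MC38r arrays on 1 chip, so the effects of position and of line cannot be told apart.

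The Snail, Zeb and Twist proteins are repressors or activators that bind E-boxes, short DNA motifs with the letters CANNTG. Snai1, Snai2 and the Zeb proteins prefer the form CACCTG, and silence the gene of E-cadherin through such sites. The Twist proteins are basic helix-loop-helix factors that bind as dimers with E proteins, which in turn are held back by Id proteins. When the program runs, E-cadherin is typically lost, N-cadherin or cadherin-11 gained, and vimentin, the intermediate filament of mesenchymal cells, becomes abundant.

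Promoter sequence from RefSeq (build GRCm38.p6) was searched for 5 of the 10 genes. The set searched held no window of the other genes, so their motif content is not given. Any windows of the 10 genes on 1 of the chromosomes had been left out of that set beforehand. The 250 bases before the transcription start were searched on both strands for CACCTG, whose reverse complement is CAGGTG. Of these 5 genes only Snai1 held the motif, in 1 copy that begins 126 bases before the start. Among all 32851 promoter windows of that table, 17.2% held it, and 66.2% held the general form CANNTG, which includes it. The sequences of Snai1 (chr2:167537945-167538194, plus strand), Vim (chr2:13574061-13574310, plus strand) and Zeb2 (its outermost start, chr2:45117443-45117692, minus strand) are shown because the signals of these genes differed between the lines. Capitals mark the motif, and the sequences run 5′ to 3′ along each gene.
Snai1: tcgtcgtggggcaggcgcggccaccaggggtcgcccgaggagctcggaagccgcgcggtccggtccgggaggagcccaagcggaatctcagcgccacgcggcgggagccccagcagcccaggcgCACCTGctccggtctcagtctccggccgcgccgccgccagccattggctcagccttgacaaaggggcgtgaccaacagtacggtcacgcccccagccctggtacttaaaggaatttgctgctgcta
Vim: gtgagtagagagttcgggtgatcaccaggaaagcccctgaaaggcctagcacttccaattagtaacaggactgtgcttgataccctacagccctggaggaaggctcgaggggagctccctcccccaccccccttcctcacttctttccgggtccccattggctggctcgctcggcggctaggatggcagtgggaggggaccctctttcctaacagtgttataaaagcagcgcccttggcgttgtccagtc
Zeb2: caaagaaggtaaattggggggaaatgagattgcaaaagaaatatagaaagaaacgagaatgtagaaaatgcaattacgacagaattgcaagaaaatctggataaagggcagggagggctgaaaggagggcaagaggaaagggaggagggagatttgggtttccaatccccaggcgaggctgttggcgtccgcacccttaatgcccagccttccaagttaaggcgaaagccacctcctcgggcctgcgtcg
The windows of Vim, of all 4 Zeb2 starts, of Twist1 and of Twist2 had no CANNTG, which says only that these letters are missing there. No binding was measured in this series.

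In the comparison of MC38r with MC38, the transcription factors did not move as a block. Snai1 and Zeb1 fell in MC38r while their relatives Snai2 and Zeb2 rose, Vim fell 3.45-fold, and no difference was detected for Twist1 or Twist2. The 3 cadherins were not above background in either line. In numbers, 7 member probes were above background on all 6 arrays and were tested, 1 for each of the 6 factors and 1 for Vim. Of these, 2 rose, 3 fell and 2 did not pass (limma, adjusted p under 0.05 over all 13990 tested probes). The count of 5 in 7 has to be read against the whole array, where 55.1% of the tested probes passed, 28.1% upward and 27% downward. The lines did not overlap for the same 5 member probes, and for 61.5% of all tested probes. Below, values are normalized log2 signals unless they are called deposited signals, which are linear and already background-subtracted. The level of one probe says nothing of the level of another gene's probe.

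**Figure D1:**
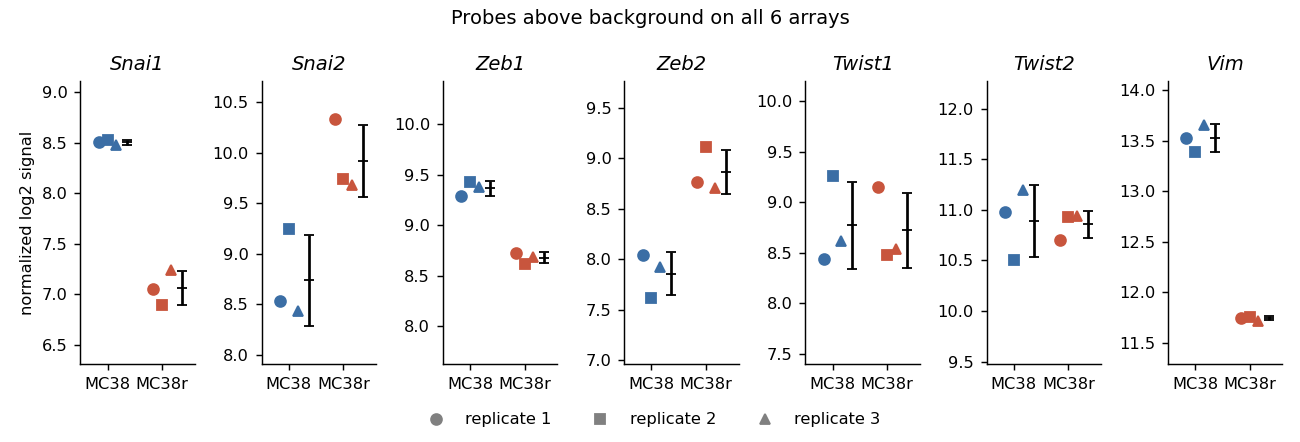
Normalized log2 signal of the 7 tested member probes on each array, with MC38 in blue and MC38r in red. Marker shapes give the replicate number, black bars the mean ± SD (n = 3), and every panel spans the same height of 2.8 log2 units. The lines are apart for Snai1, Snai2, Zeb1, Zeb2 and Vim and overlap for Twist1 and Twist2.

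Cdh1 encodes E-cadherin, the adhesion molecule of epithelial junctions. Its 2 probes had deposited signals between -6.2 and 17.8 and were not above background on any of the 6 arrays. Cdh2 encodes N-cadherin, typical of neural and mesenchymal cells, and its 2 probes lay between -4.4 and 17.6. Cdh11 encodes cadherin-11 of mesenchymal and bone-forming cells, and its 3 probes lay between -9.6 and 13.2. No array of either line gave a detection p under 0.01 for any of these 7 cadherin probes, so neither a level nor a fold can be given. The nearest to detection was probe 2350040 of Cdh2, with detection p-values of 0.135, 0.0299 and 0.0353 on the MC38 arrays and 0.312, 0.0737 and 0.111 on the MC38r arrays. A difference between the lines in any of the 3 transcripts was therefore not detectable here.

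**Figure D2:**
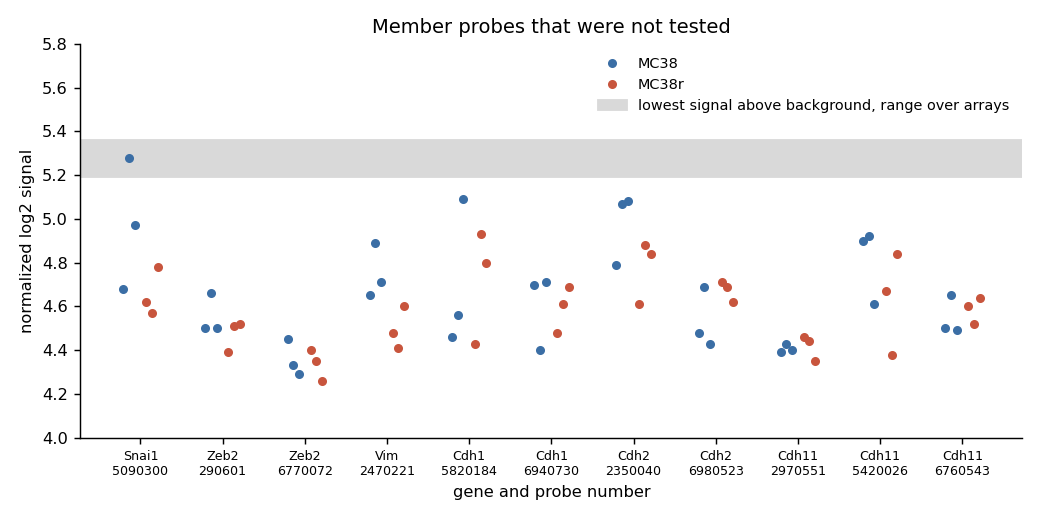
Normalized log2 signal of the 11 member probes that were not tested, on the 3 MC38 (blue) and 3 MC38r (red) arrays. The grey band spans the lowest signals called above background, 5.19 to 5.36 over the 6 arrays, and only 1 point, a Snai1 probe in MC38, reaches it.

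Vim encodes vimentin. Its probe 1690091 gave deposited signals of 11811.2, 10753.3 and 12961.3 on the MC38 arrays and of 3432.1, 3450.6 and 3359.4 on the MC38r arrays. All 3 MC38 values lay far above all 3 MC38r values, and the MC38r values lay close together. On the normalized log2 scale the mean went from 13.53 ± 0.13 (SD, n = 3) to 11.74 ± 0.02, a difference of -1.79 with a 95% interval of -2.07 to -1.50 (limma, adjusted p = 3.4e-06). Among all tested probes, 4.22% fell at least as far. Although lower, the transcript was still far above background in MC38r. These are bulk samples, so fewer cells with the transcript and less of it per cell cannot be told apart. The other Vim probe, 2470221, was not above background on any array (deposited signals of -5.7 to 12.5), and it carries no fold.

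Snai1 and Snai2 encode Snail and Slug, zinc finger repressors of the same family. Probe 4860255 of Snai1 gave deposited signals of 348.8, 354.2 and 340.2 in MC38 and of 116.5, 104 and 135.2 in MC38r. The lines were well apart, with the MC38 arrays almost level with each other. Its log2 signal fell from 8.51 ± 0.03 to 7.06 ± 0.17, that is 2.72-fold, with a difference of -1.44 (95% interval -1.75 to -1.14, limma, adjusted p = 1.9e-05). A second Snai1 probe, 5090300, was above background on MC38 replicate 2 alone (deposited signal 23) and was not tested.

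The single Snai2 probe, 4010632, went the other way. Its deposited signals were 354, 593.9 and 328.3 in MC38 and 1275.6, 842 and 804.4 in MC38r. The lowest MC38r array lay above the highest MC38 array, but the arrays of each line were more scattered than for Snai1. The log2 signal rose 2.27-fold, from 8.74 ± 0.45 to 9.92 ± 0.36 (difference 1.18, 95% interval 0.62 to 1.75, limma, adjusted p = 0.0031). The highest array of each line, MC38 replicate 2 and MC38r replicate 1, are a pair that departed from their lines together over all tested probes, with a correlation of 0.62 between their deviations across 13990 probes. Without both of them the difference was 1.23 (adjusted p = 9.5e-05).

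Zeb1 and Zeb2 encode a pair of zinc finger homeodomain repressors. Probe 4290403 of Zeb1 had deposited signals of 610.2, 674.4 and 650.1 in MC38 and of 409.3, 377 and 396.6 in MC38r. The lines were apart and the spread within each was small. The log2 signal fell 1.61-fold, from 9.37 ± 0.07 to 8.68 ± 0.06 (difference -0.69, 95% interval -0.96 to -0.41, limma, adjusted p = 0.0012). Falls of this size or more were common, at 18.5% of all tested probes.

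Probe 2850703 of Zeb2 had deposited signals of 247.3, 180.6 and 227 in MC38 and of 421.1, 538.2 and 404.3 in MC38r. Every MC38r array was above every MC38 array. The log2 signal rose 2.01-fold, from 7.86 ± 0.22 to 8.87 ± 0.22 (difference 1.01, 95% interval 0.63 to 1.38, limma, adjusted p = 0.00073). Rises at least as large were seen for 11.1% of tested probes, and for Snai2 the share was 8.34%. The other 2 Zeb2 probes, 290601 and 6770072, were not above background on any array, with deposited signals of -18.9 at the lowest and 5.5 at the highest.

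The array also holds probes under the older names of both genes, which the choice by symbol left out. The ZFHX1B probe, an older name of Zeb2, was above background on 2 MC38 and 3 MC38r arrays but only slightly. It stood at 5.52 ± 0.23 in MC38 and 5.63 ± 0.1 in MC38r, a difference of 0.11 (95% interval -0.23 to 0.45, adjusted p = 0.56). The rise of Zeb2 therefore rests on 1 of its 4 probes, the only one well above background. The ZFHX1A probe of Zeb1 was not above background on any array.

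Ratios within each array, taken on the normalized signals, show how far the pairs diverged. The log2 ratio of the Snai2 to the Snai1 probe was -0.05 to 0.72 on the MC38 arrays and 2.44 to 3.29 on the MC38r arrays. The mean ratio changed by 2.63, from 0.23 ± 0.43 (SD, n = 3) to 2.86 ± 0.42. The ratio of Zeb2 to Zeb1 was -1.81 to -1.25 in MC38 and 0.03 to 0.5 in MC38r, a change of 1.69 in its mean. In both cases the exact two-sided permutation p was 0.1, the smallest that 3 arrays against 3 can give. The probes of each pair had already separated the lines in opposite directions, so this outcome was fixed and adds no support. A ratio shows that the 2 probes changed unequally, not which transcript is the more abundant.

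Twist1 and Twist2 encode closely related helix-loop-helix factors. The Twist1 probe, 7100497, had deposited signals of 331.2, 596.9 and 379.1 in MC38 and of 551.1, 341.1 and 357.4 in MC38r. The lines overlapped fully, and the highest array of each was again the pair that deviated together. The means were 8.77 ± 0.43 and 8.72 ± 0.37, with a difference of -0.05 and a 95% interval of -0.61 to 0.50 (limma, adjusted p = 0.88). Log2 differences from -0.61 to 0.50 thus lie within the error of these arrays.

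The Twist2 probe, 6420739, had deposited signals of 2007.4, 1435.4 and 2339.5 in MC38 and of 1648.3, 1940.9 and 1954.4 in MC38r. Here the same pair of arrays were the lowest of their lines. The means were 10.90 ± 0.36 and 10.86 ± 0.14, with a difference of -0.04 (95% interval -0.46 to 0.39, adjusted p = 0.89). With both arrays left out, the differences were -0.02 for Twist1 and -0.15 for Twist2 (adjusted p = 0.90 and 0.34). The log2 ratio of the Twist2 to the Twist1 probe ranged from 1.24 to 2.58 in MC38 and from 1.55 to 2.46 in MC38r, and its mean changed by 0.01 (exact two-sided permutation p = 1).

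**Figure D3:**
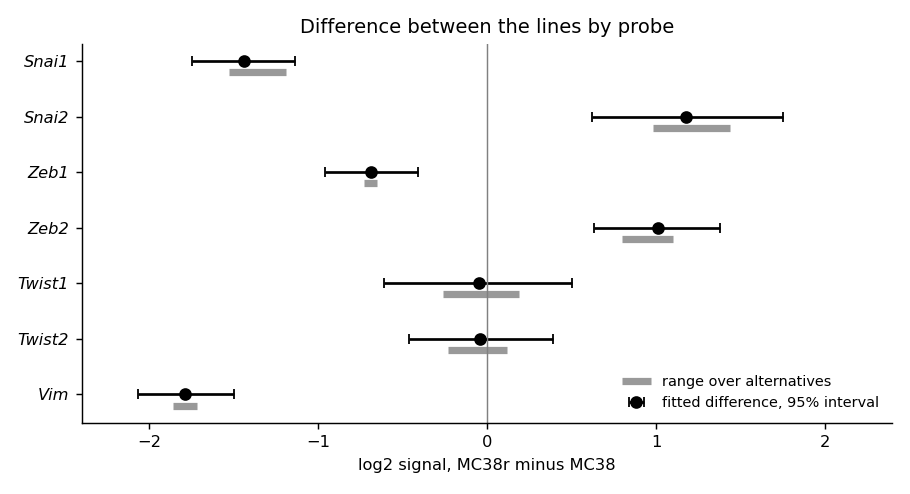
Difference in log2 signal, MC38r minus MC38, for the 7 tested member probes. Points and black bars give the fitted value with its 95% interval, and grey bars the range over the processing alternatives. The intervals of Snai1, Snai2, Zeb1, Zeb2 and Vim lie to one side of 0, and those of Twist1 and Twist2 cross it.

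**Figure D4:**
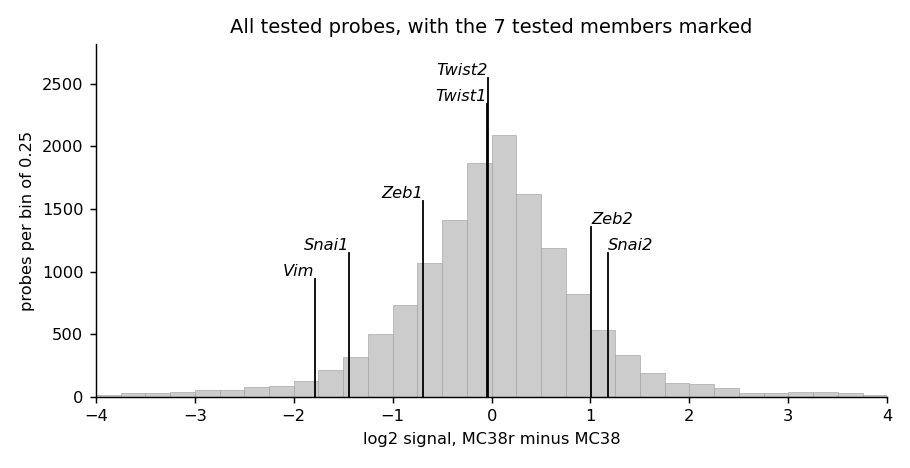
Distribution of the log2 difference, MC38r minus MC38, over the 13990 tested probes in bins of 0.25, with lines at the 7 members. The axis is limited to 4 on either side. Vim (-1.79) and Snai1 (-1.44) lie in the lower flank, Snai2 (1.18) and Zeb2 (1.01) in the upper, and Twist1 and Twist2 at the centre.

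The authors' deposited table of the same comparison, from the same arrays, lists 5 of the 10 genes, and the same 5 passed here. It holds 6244 rows whose unadjusted p-values reach 0.05 at most, so being listed means no more than that cut. In the authors' deposited table Vim was 3.47-fold lower, Snai1 2.27-fold lower and Zeb1 1.58-fold lower, with Snai2 2.2-fold and Zeb2 1.74-fold higher. Its adjusted p-values were 0.0151 for Snai1 and 0.0357 for Zeb1, but 0.0836 for Vim, 0.147 for Zeb2 and 0.238 for Snai2 in the authors' deposited table, whose test is not stated. The gene values that the authors deposited for the series were set against the plain mean of a gene's probe signals. For Snai1 the series value exceeded that mean by 32.4 to 35.3 and for Zeb2 by 32.1 to 33.5 on the 6 arrays. The excess varied more for the bright genes, from 15.1 to 58.8 for Twist2 and from 3.18 to 148 for Vim. The fold of the deposited series values was 2.27 for Snai1 and 1.74 for Zeb2, against 2.72 and 2.01 by the probes above background.

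Genes that work with or around these factors were read from lists of the pathway, each gene by its brightest tested probe. The lists held genes moving in both directions. Over the whole array 56% of 9811 measured genes passed, 28.6% upward and 27.4% downward, with a median log2 difference of 0.03, and the counts of the lists are given beside that background.

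Of 6 measured E proteins and Id inhibitors 1 rose and 4 fell, the probe named TCF3 included, with a median log2 difference of -0.69. Of these, Id2 entered the test through MC38, where it was high. When all 6 arrays had to be above background, 4 calls in all were left. The E protein gene Tcf4 rose from 11.35 ± 0.37 to 12.06 ± 0.14 (adjusted p = 0.011). The inhibitor Id2 was lower (6.18 ± 0.17 in MC38), with 1 MC38r array above background and so no exact fold. Id3 was 2.1-fold lower (7.11 ± 0.24 to 6.04 ± 0.33). Id1 stood at 7.87 ± 0.16 and 8.07 ± 0.06 (adjusted p = 0.24). The probe named TCF3 on the array was 2-fold lower, but that symbol has been used for both an E protein and a Wnt effector, and the tested probe under the other name of the E protein differed by -0.08.

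Among other transcription factors linked to the transition, 4 of 10 measured rose against 3 that fell (median 0.51), and 4 calls in all were left when all 6 arrays had to be above background. The mesenchymal homeobox gene Prrx1 rose 3.03-fold (8.88 ± 0.09 to 10.48 ± 0.12, adjusted p = 8.3e-06), and all 5 of its tested probes passed in that direction. Its relative Prrx2 fell 3.74-fold, from 10.05 ± 0.13 to 8.14 ± 0.03, the opposite direction to Prrx1. The forkhead gene Foxf1 rose 2.73-fold, and Foxq1 rose to 6.72 ± 0.07 (adjusted p = 3.1e-05), with 2 MC38 arrays above background. Sox9 fell 7.46-fold (11.92 ± 0.15 to 9.02 ± 0.17), and Tbx3 was at least 1.93-fold lower, with no MC38r array above background. Foxc1 (0.17) did not pass. Of 10 further Snail, Zeb and Twist relatives, Snai3 among them, none gave a signal above background on any array.

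Corepressors and enzymes that turn over Snail, Slug and Zeb passed in 8 of 18 cases, 4 upward and 4 downward. Of these, Wtip and Pak1 entered the test through MC38, where they were high. When all 6 arrays had to be above background, 6 calls were left. Eed, a Polycomb subunit, rose 2.01-fold and the Zeb corepressor Ctbp2 1.76-fold. Fbxl14, a ubiquitin ligase subunit that targets Snail for destruction, rose 1.54-fold (9.06 ± 0.18 to 9.68 ± 0.05, adjusted p = 0.0042). Wtip, a LIM protein of the Ajuba family, was at least 13.3-fold lower (8.97 ± 0.61 in MC38, not above background in MC38r). The kinase Pak1 was lower (6.23 ± 0.38 in MC38), with 1 MC38r array above background and so no exact fold. Fbxo45, a ligase subunit, was 1.37-fold lower. The scaffold Sin3a (-0.05) and the Snail ubiquitin ligase Btrc (-0.06) did not pass. The count of 8 went to 5 without MC38r replicate 1 and likewise without MC38r replicate 2.

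Of 19 factors that hold the epithelial state, transcription factors and the splicing regulators Esrp1 and Esrp2, 10 were not above background on any array, among them Grhl2 and both Esrp genes. Of the 7 measured, 3 rose and 1 fell, but Foxa1, Cdx2 and Gata6 were measured through 1 line alone, and 1 call was left when all 6 arrays had to be above background. The zinc finger gene Klf5 rose 6.68-fold (9 ± 0.5 to 11.74 ± 0.25), Foxa1 at least 2.47-fold and the intestinal homeobox gene Cdx2 at least 1.4-fold, while Gata6 was at least 6.79-fold lower (8 ± 0.09 in MC38). Ovol2 and Elf3, both close to background, did not pass (-0.05 and 0.16). Of 37 junction and polarity genes 25 were not above background on any array, Epcam, Ocln and Tjp1 included. Among the 12 measured, 3 rose and 3 fell, and 3 calls in all were left when all 6 arrays had to be above background. The claudin genes Cldn6 (at least 1.41-fold) and Cldn12 (2.23-fold) and the polarity gene Pard6a (2.09-fold) were higher. The protease inhibitor Spint1 (at least 2.03-fold) and the virus receptor and junction gene Cxadr (at least 1.76-fold) were lower. Llgl2 (-0.08) and Cldn15 (-0.13) did not pass.

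With Cdh1, Cdh2 and Cdh11 at background, other cadherins were looked at for signal. Of 38 on the array 29 gave no signal above background on any array, and of 7 measured 4 rose and 1 fell. Of these 5, Cdh26, Cdh13, Pcdh1 and Pcdh17 entered the test through the line where they were high, and 1 call was left when all 6 arrays had to be above background. Cdh26 had the highest rise of the list, from 4.59 ± 0.16, not above background on any MC38 array, to 8.96 ± 0.23, at least 12.8-fold. Cdh13, T-cadherin, which is held in the membrane by a lipid anchor, went from 4.8 ± 0.11 to 7.45 ± 0.08, at least 4.5-fold, and Pcdh1 was at least 2.99-fold higher. Fat1, a giant cadherin named here after its values were seen, rose 3.16-fold (8.39 ± 0.12 to 10.05 ± 0.06). Pcdh17 was at least 1.28-fold lower, and Pcdh19 (0.03) and Pcdh7 (0.21) did not pass. Cdh26, Cdh13 and Pcdh1 each gave a signal above background on 3 MC38r arrays and 0 MC38 arrays. That pattern is how they entered the test, so it adds no support.

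Proteins that tie cadherins to actin passed in 7 of 13 cases, 2 upward and 5 downward, with a median of -0.13. Of these, Nectin3 entered the test through MC38, where it was high. When all 6 arrays had to be above background, 6 calls were left. Nectin3, a cell adhesion gene, was at least 16.9-fold lower (9.32 ± 0.11 in MC38) and its relative Nectin2 rose 4.67-fold (6.24 ± 0.31 to 8.46 ± 0.28). These are the brightest probes. All 3 tested Nectin2 probes passed, with log2 differences of 0.74 to 2.22, and the other tested Nectin3 probe passed at -2.6. Vinculin, Vcl, fell 3.35-fold and the actin crosslinker Actn1 2.37-fold, and Iqgap1 rose 1.75-fold. Pkp4 (-0.05) and Actn4 (0.1) did not pass. The catenins, which link cadherins to actin, were named after their values were seen. Of these, beta-catenin, Ctnnb1, fell 1.53-fold (8.62 ± 0.18 to 8.01 ± 0.3, adjusted p = 0.015), and Ctnna1 (0.18) and Ctnnd1 (-0.13) did not pass. Jup, plakoglobin, was not above background on any array.

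Among intermediate filament and linker genes 3 of 7 measured rose and 3 fell, and 12 of 22 on the array, with Des, Gfap, Krt18 and Krt19 among them, did not exceed background on any array. Nes, nestin, a filament protein that assembles with vimentin, rose 6.32-fold from 6.13 ± 0.11 to 8.79 ± 0.06. Its other tested probe also passed, with a smaller log2 difference of 0.72. The neurofilament gene Nefm was at least 3.28-fold higher, and entered the test through MC38r, where it was high. When all 6 arrays had to be above background, 5 calls of this list were left. The linker Dst rose 1.7-fold by its brightest probe. Of its 3 tested probes 2 passed, and the log2 differences ranged from 0.11 to 0.9. The lamin gene Lmnb1 fell 1.8-fold (10 ± 0.16 to 9.15 ± 0.04) and the linker Plec 1.56-fold. Lmna did not pass by its brightest probe (0.22), whereas 1 of its 6 tested probes fell.

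Proteases that shed or cut cadherins fell in 5 of 10 cases and rose in 2. The membrane metalloproteinase Mmp14 fell 4.42-fold (11.54 ± 0.41 to 9.39 ± 0.18), and the sheddases Adam17 and Adam15 fell 2.33-fold and 1.97-fold. The other tested Adam17 probe also passed, with a log2 difference of -2.57. The gamma-secretase genes Psen2 and Psenen rose 1.53-fold and 1.39-fold. Aph1a (0.14) and Mmp3 (0.28) did not pass.

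**Figure D5:**
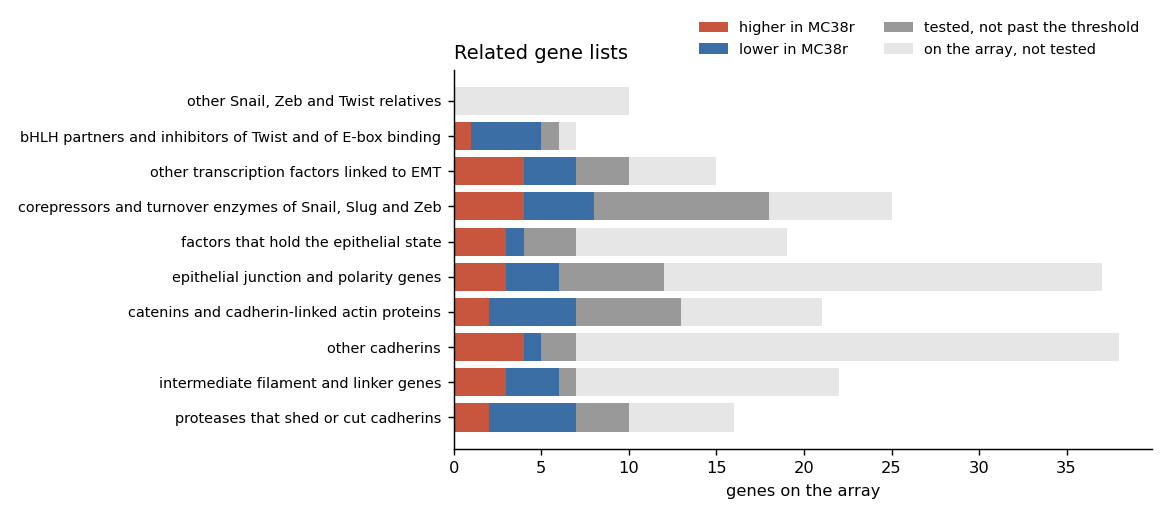
Number of genes of each pathway list on the array, split into those higher in MC38r (red), lower in MC38r (blue), tested without passing the threshold (dark grey) and not tested because they were too dim (light grey). Most junction genes and cadherins fall in the light grey part.

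The labelled origin of the cells was set against marker genes. Of 17 markers of colonic epithelium 12 were not above background on any array, Epcam, Krt18, Krt19, Krt20, Vil1 and Cdh17 included. None was above background on all MC38 arrays, and 2, Cdx2 and Lgals4, were so on all MC38r arrays. The summed deposited signal of the list was 67.7 to 97.1 in MC38 and 132 to 182 in MC38r. Such sums, here and below, take the brightest probe of every gene, those at background included, with negative signals set to 0. A low sum is therefore in part background. Of 12 fibroblast and stroma markers 8 were above background on all MC38 and 5 on all MC38r arrays, with sums of 2660 to 2890 and 4040 to 4520. Of the 8 measured, 3 rose and 4 fell (median -0.48). Pdpn (10.89 ± 0.11 to 11.8 ± 0.08), Pdgfra and Dcn rose, and Col3a1, Col1a2, S100a4 and Pdgfrb fell. Of 6 smooth muscle markers only 2 were measured, and both fell. The summed signal of the list went from 6050 to 6620 in MC38 to 380 to 536 in MC38r. In it Tagln, Myh11, Cnn1 and Des were not above background on any array. Its actin gene Acta2, named after its values were seen, fell 85.3-fold. Of 7 leukocyte markers 6, including Ptprc, stayed at background throughout, as did 4 of 6 endothelial markers, including Pecam1 and Cdh5. The remaining leukocyte marker was above background on all MC38 arrays but not on all MC38r arrays. It was lower in MC38r, and no exact fold is given because it entered the test through MC38. The endothelial sums were 62 to 84.1 in MC38 and 216 to 262 in MC38r, and its 1 measured gene, Flt1, rose 3.89-fold (adjusted p = 3.2e-06). The part of these shifts in the results above was not tested.

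Between 28.3% and 30.5% of probes were above background per array, with a median of 44 beads a probe. Housekeeping control signals were lower on the MC38r arrays (10271 to 10673) than on the MC38 arrays (11552 to 12858), and their part in the results was not tested.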

How the data were processed

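The members, gene lists and tests were chosen with earlier results of these data known. Per the file headers, the authors exported probe signals from GenomeStudio 1.9.0 with quantile normalization. These deposited numbers are linear intensity, and 35% to 35.1% lie under 0, so the background was already subtracted. Detection, as the authors deposited it, is a score equal to 1 minus the detection p-value. The authors' deposited comparison gives a ratio, its log2 value and p-values.

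From the deposited signals, limma 3.58.1 in R 4.3.3 applied normexp correction (nec, offset 16), log2 and quantile normalization. A probe was above background at a detection p under 0.01, and probes above it on at least 3 of 6 arrays were kept (13990 of 45281). Lines were compared per probe with lmFit and eBayes, with Benjamini-Hochberg adjustment over all kept probes. An "at least" fold sets the brighter line's mean against, per array of the other line, the higher of the probe's own signal and the dimmest signal that passed as above background. List genes were matched by current or older symbol (21907 of 30854 names), and the brightest kept probe stood for a gene. From each list, up to 3 rises, 3 falls and 2 genes that did not pass are named. Some genes that this rule would name are not reported here. In data simulated for this comparison (14556 to 14590 probes, 5 runs), 10% of 1.5-fold, 71.2% of 2-fold, 91.2% of 3-fold and 97.2% of 4-fold changes were recovered, and 7.03% of calls were false. Only 250 probes per fold size were changed over the 5 runs, whereas 55.1% of tested probes passed in the real data. The adjusted p threshold therefore acts differently there, and these rates do not carry over to the real comparison. Alternatives covered background correction, offset, normalization, filter, replicate block, variance model, array weights, the deposited series values and the omission of arrays. The number of arrays limits the precision.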

Additional observations from a re-analysis of the deposited data

How the results depend on the processing

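All 5 calls among the member probes held, in the same direction, under all 16 alternatives run on the probe table and with the deposited series values, with log2 differences of -1.53 to -1.19 for Snai1, 0.98 to 1.44 for Snai2, -0.73 to -0.65 for Zeb1, 0.8 to 1.1 for Zeb2 and -1.86 to -1.72 for Vim. Their highest adjusted p was 0.024, for Snai2. The count over all probes went from 7713 to between 5696 and 8969. Twist1 and Twist2 passed under none, and their sign was not stable: Twist1 was 0.03 with array weights and ranged from -0.26 to 0.19 when single arrays were left out, and Twist2 from -0.23 to 0.12. The replicate block called 6887 probes and the same 5 members (-1.44, 1.18, -0.69, 1.01 and -1.79). Same-numbered arrays share only a number: their deviations correlated at -0.46, -0.44 and 0.3, while MC38 replicate 2 and MC38r replicate 1 correlated at 0.62. Leaving out that pair, chosen after seeing the data, called 8479 probes and the same 5 members. The list genes called numbered 55, and between 37 and 63 under the alternatives. With a filter that needs all 6 arrays, which drops genes of 1 line, calls fell from 5 to 1 for other cadherins, 4 to 1 for epithelial factors, 6 to 3 for junction genes and 7 to 4 for other transcription factors. Calls among corepressors fell from 8 to 4 without a filter and to 5 without MC38r replicate 1 or MC38r replicate 2, and the cause was not tested. Probes near background, all cadherin members included, give no level. In simulated data 10% of 1.5-fold changes were recovered. Far fewer probes were changed there than the 55.1% that passed here, so that rate does not carry over to this comparison. Changes near that size may still be missed.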
